A study of Mus musculus with 12 samples.

Results

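Gas1 and the core genes of the hedgehog pathway were followed by RNA sequencing in mouse bone marrow mesenchymal stem cells (MSCs) across 4 culture conditions. The 9 genes Gas1, Cdon, Boc, Ptch1, Hhip, Smo, Gli1, Gli2 and Gli3 were chosen by name from a table of 55401 genes. Gas1 was selected on its own level in these data, because it had one of the deepest falls after TGF-β1. Its values are therefore given as a description, without a test, in each comparison that uses the untreated or TGF-β1 libraries. The other 8 genes were chosen for their place in the pathway.

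The MSCs came from C57BL/6 mice and were bought as a commercial culture. They were left untreated, treated with 5 ng/mL TGF-β1, treated with 5 ng/mL TGF-β1 and the supernatant of monocytic myeloid-derived suppressor cells (TGF-β1/M-MDSC supernatant), or treated with 5 ng/mL TGF-β1 and the supernatant of granulocytic ones (TGF-β1/G-MDSC supernatant), with 3 libraries per group. TGF-β1 is a cytokine that drives MSCs toward matrix-producing myofibroblasts. MDSCs are immature myeloid cells that dampen immune responses, and here they were grown from C57BL/6 bone marrow with GM-CSF and IL-6 and sorted, so the MSCs met medium conditioned by them. No group received supernatant without TGF-β1, so its action on resting MSCs was not measured. Levels are FPKM, the count of fragments scaled by transcript length and by library depth, and differences are log2 fold changes fitted on the counts.

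The 12 libraries held 73977669 to 84565450 counts. The summed level of 8 MSC surface markers was 581 to 598 FPKM in untreated cells and 500 to 586 FPKM in the other groups. Of these, Eng reached no more than 0.968 FPKM and Nt5e no more than 1.66 FPKM in any library. The marker sum hides opposite differences. Cd44 was 38.5 to 41.1 FPKM untreated and 48.5 to 65.3 FPKM in the other groups. Pdgfrb was 32.0 to 32.9 FPKM untreated and 33.2 to 46.2 FPKM in the others, and Nt5e 0.321 to 0.505 and 0.958 to 1.66 FPKM. Thy1 was 3.94 to 5.27 FPKM untreated and 1.34 to 2.42 FPKM in the others, and Pdgfra 13.2 to 15.5 and 4.58 to 6.93 FPKM. Itgb1 was 247 to 263 FPKM untreated and 370 to 394 FPKM in the other groups. Ly6a was 241 to 251 FPKM untreated, at most 18.8 FPKM with TGF-β1, 82.6 to 103 FPKM after M-MDSC supernatant and 63.3 to 69.2 FPKM after G-MDSC supernatant. The leukocyte gene Ptprc was at or below 0.0157 FPKM and the blood progenitor gene Kit at or below 0.0117 FPKM in all 12. Cd34, often absent from MSCs, was 60.1 to 66.0 FPKM in untreated cells and 10.9 to 17.4 FPKM in the other groups. Several genes of the kidney tubule, Kap above all, were much higher where supernatant had been added. The sum of 14 such markers, leaving out Aqp1, which the untreated MSCs also expressed, was 0.403 to 0.601 FPKM in the 6 libraries without supernatant, 17.2 to 86.5 FPKM with M-MDSC supernatant and 51.1 to 65.8 FPKM with G-MDSC supernatant, with all 14 detected in each of these 6 libraries. Kap, an androgen-regulated gene of the proximal tubule, was the larger part of that sum, at 9.2 to 69.2 FPKM for M-MDSC and 37.1 to 51.2 FPKM for G-MDSC, and had 0 counts in the 6 libraries without supernatant. Cubn, another of the 14, was 0.315 to 0.479 FPKM across all 12 libraries, with overlapping groups. The sum of 12 myeloid markers was 4.62 to 5.41 FPKM untreated, 2.24 to 3.2 FPKM with TGF-β1, 4.22 to 6.73 FPKM after M-MDSC supernatant and 5.59 to 8.21 FPKM after G-MDSC supernatant, so each library with supernatant lay above all 3 with TGF-β1 alone. Lyz2, the lysozyme of macrophages and granulocytes, was at most 0.191 FPKM without supernatant. It was 0.651 to 2.29 FPKM after M-MDSC supernatant and 1.56 to 2.11 FPKM after G-MDSC supernatant. Other markers of this list did not follow Lyz2. Ly6g was 1.74 to 1.89 FPKM untreated and at most 0.199 FPKM in the other groups. Mpo and Elane were 0.0001 FPKM in all 12 libraries. Cd68 was 2.0 to 2.72 FPKM untreated, 1.1 to 1.99 FPKM with TGF-β1 and 1.49 to 2.5 FPKM with supernatant.

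Hedgehog proteins are secreted signals that pattern the embryo and act on mesenchymal cells in adult tissue. They bind PTCH1, which otherwise silences the membrane protein SMO, and free SMO to act through the primary cilium on the GLI transcription factors. GAS1, CDON and BOC are cell surface co-receptors that help PTCH1 to take up ligand, and HHIP binds and removes it. GAS1 was first isolated as a gene switched on in growth-arrested fibroblasts, and it is related in structure to the co-receptors of the GDNF family that work with RET. Gli1, Ptch1 and Hhip are also classical targets of the pathway, so that their levels are commonly used to read its activity.

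The sequences upstream of Gas1, Hhip and Gli2, the 3 members that passed the filter with the largest differences between TGF-β1 and untreated MSCs, are shown to give the DNA before their RefSeq starts. They are the 250 bases before the RefSeq gene start (GRCm38.p6), written 5′ to 3′ on the gene's own strand, which is the minus strand for all 3. Capitals mark GGGCGG, the core letters bound by SP1, or its reverse complement CCGCCC. The windows are chr13:60177536-60177785 for Gas1, chr8:80058009-80058258 for Hhip and chr1:119053620-119053869 for Gli2. The RefSeq start of Gas1 lies upstream of the gene bound in the deposited table (60177365), so the Gas1 window does not adjoin that bound.
Gas1: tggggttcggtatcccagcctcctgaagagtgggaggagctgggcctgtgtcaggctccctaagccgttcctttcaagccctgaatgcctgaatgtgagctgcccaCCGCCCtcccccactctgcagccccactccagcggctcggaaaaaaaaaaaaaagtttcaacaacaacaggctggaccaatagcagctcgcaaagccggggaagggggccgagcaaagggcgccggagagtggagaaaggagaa
Hhip: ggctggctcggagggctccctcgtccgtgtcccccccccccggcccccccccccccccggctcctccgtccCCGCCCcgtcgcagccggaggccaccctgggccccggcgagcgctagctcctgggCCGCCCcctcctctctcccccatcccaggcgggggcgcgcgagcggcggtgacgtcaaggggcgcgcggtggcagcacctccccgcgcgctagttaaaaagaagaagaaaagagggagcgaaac
Gli2: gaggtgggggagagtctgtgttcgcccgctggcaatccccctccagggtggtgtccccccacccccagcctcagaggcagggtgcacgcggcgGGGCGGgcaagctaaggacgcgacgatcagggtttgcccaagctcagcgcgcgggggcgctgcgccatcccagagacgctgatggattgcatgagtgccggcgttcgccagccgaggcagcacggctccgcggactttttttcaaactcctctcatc
The Gas1 window held 10 CG pairs and 58.8% G and C, against 28 pairs and 76.0% for Hhip and 22 pairs and 67.2% for Gli2. RefSeq windows of 300 bases around the start were matched for 7 of the 9 genes. The GLI core GACCACCCA, read on both strands, was in 0 of these 7 windows and in 0.253% of all 32851 mouse windows, and in 0 of 7 and 6.74% when 1 mismatch was allowed. CAGACA, letters bound by SMAD3 and SMAD4, was in 0 of 7 and 21% of all, and TTGGTGA, the core of the TGF-β inhibitory element, was in 0 of 7 and 3.94%. GGGCGG was in 5 of 7 and 35.7% of all windows. These are letter matches within short windows and do not show where a factor binds.

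Gas1 was expressed at a level near that of Smo in untreated MSCs and lay much nearer to the weakly expressed co-receptors with TGF-β1, though each of its libraries stayed above every Boc and Cdon library of that group. Gas1 (ENSMUSG00000052957, chromosome 13, 60174405 to 60177365, minus strand, GRCm38) is a gene of 1 exon. Its level was 50.8, 49.3 and 55.4 FPKM in the untreated libraries and 5.03, 3.33 and 4.26 FPKM with TGF-β1. With supernatant added it was 5.32, 5.06 and 6.43 FPKM for M-MDSC and 5.45, 6.76 and 6.58 FPKM for G-MDSC. All 9 TGF-β1-treated libraries lay far below the untreated ones. In FPKM all 6 with supernatant lay above the highest of the 3 with TGF-β1 alone, the nearest pair being 5.06 and 5.03 FPKM. The counts of that pair were 1238 (M-MDSC library 2) and 1338 (TGF-β1 library 1), so their order depends on the scaling.

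On average Gas1 fell from 51.8 ± 3.2 FPKM (SD, n = 3) to 4.21 ± 0.852 FPKM with TGF-β1, which was 8.12% of the untreated level or 12.3-fold lower. The fitted log2 fold change was -3.56, the fall of rank 28 among 12016 genes tested. The means of both supernatant groups (M-MDSC, then G-MDSC) were 5.6 ± 0.726 and 6.26 ± 0.708 FPKM, 10.8% and 12.1% of the untreated level. The supernatants thus came with a level 2.93% and 4.31% of the fall above that of TGF-β1 alone, and the fitted differences from TGF-β1 were 0.39 and 0.55 on the log2 scale. The reads behind these levels were 12849 to 14701 counts untreated, 900 to 1338 with TGF-β1 and 1238 to 1759 with supernatant. In bulk RNA, fewer cells that express a gene and less of its RNA per cell cannot be told apart. An antisense gene that overlaps Gas1, Gm48488, did not exceed 0.416 FPKM.

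M-MDSC and G-MDSC supernatants were compared directly with a test, because those 6 libraries played no part in the choice of Gas1. The Gas1 level differed by -0.16 on the log2 scale (95% interval -0.48 to 0.16, M-MDSC against G-MDSC, edgeR adjusted p = 0.968), and the libraries of both groups overlapped. Within these 6 libraries the kidney marker sums ran in nearly the same order as Gas1. The sums were 18.903, 17.174 and 86.47 FPKM in M-MDSC libraries 1 to 3, where Gas1 was 5.32, 5.06 and 6.43 FPKM. They were 51.103, 65.838 and 61.479 FPKM in G-MDSC libraries 1 to 3, where Gas1 was 5.45, 6.76 and 6.58 FPKM. The part of the kidney and myeloid transcripts in the Gas1 levels was not tested.

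**Figure D1:**
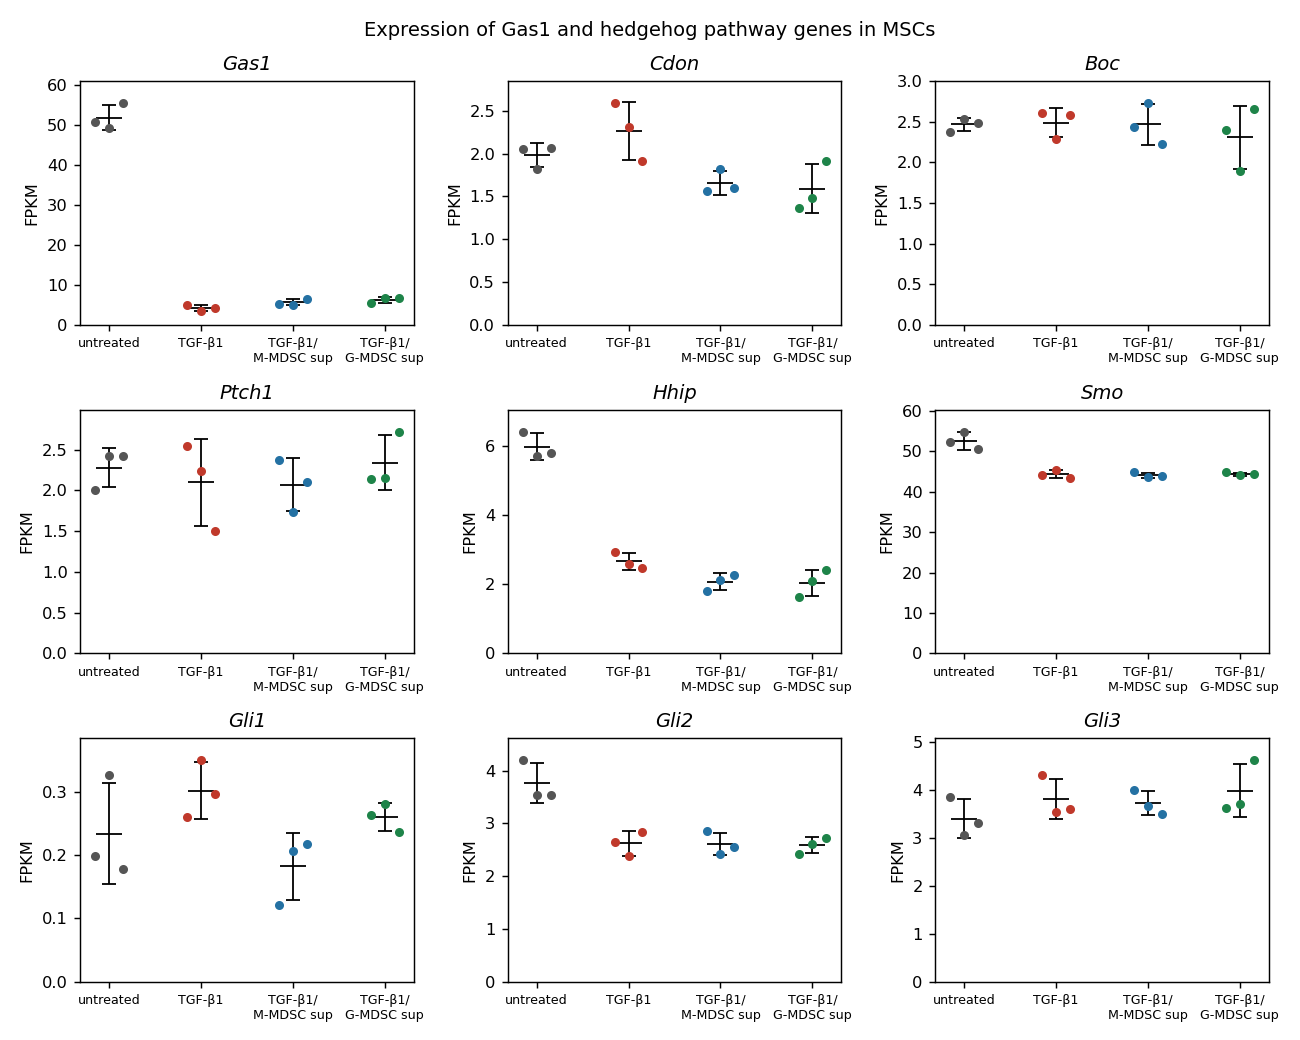
FPKM of the 9 genes in each library by culture condition. Points are libraries, horizontal marks are means and bars are SD (n = 3 per group). Gas1, Hhip, Gli2 and Smo lay lower in all TGF-β1-treated libraries than in the untreated ones, and the untreated Gas1 values were 49.3 to 55.4 FPKM against 3.33 to 6.76 FPKM in the rest.

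The other co-receptors did not follow Gas1. Cdon (ENSMUSG00000038119, chromosome 9) and Boc (ENSMUSG00000022687, chromosome 16) encode relatives in the immunoglobulin superfamily that bind hedgehog ligands. Boc was 2.38, 2.54 and 2.48 FPKM untreated, 2.61, 2.29 and 2.58 FPKM with TGF-β1, 2.44, 2.73 and 2.23 FPKM with M-MDSC supernatant and 2.4, 1.89 and 2.66 FPKM with G-MDSC supernatant. The 4 groups overlapped, and TGF-β1 against untreated gave 0.07 on the log2 scale (95% interval -0.2 to 0.35, adjusted p = 0.705). Cdon was 2.05, 1.82 and 2.07 FPKM untreated, and 2.59, 2.31 and 1.92 FPKM with TGF-β1. Its values were 1.56, 1.82 and 1.6 FPKM with M-MDSC supernatant and 1.37, 1.48 and 1.92 FPKM with G-MDSC supernatant, so that 5 of 6 libraries with supernatant lay below all those with TGF-β1 alone.

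Cdon differed by 0.26 between TGF-β1 and untreated MSCs (95% interval -0.06 to 0.57, adjusted p = 0.203). Against TGF-β1 alone it was -0.48 with M-MDSC supernatant (95% interval -0.79 to -0.16, adjusted p = 0.106) and -0.54 with G-MDSC supernatant (95% interval -0.86 to -0.22, adjusted p = 0.0557), and neither passed the threshold of 0.05 in edgeR. Both passed in DESeq2, with adjusted p = 0.0343 and 0.00869. The M-MDSC difference passed without G-MDSC library 3 (adjusted p = 0.0499), and the G-MDSC difference passed without TGF-β1 library 3 (0.0344) or without G-MDSC library 3 (0.0155). Over all alternatives the adjusted p was 0.0343 to 0.308 and 0.00869 to 0.196. Against untreated MSCs Cdon was at -0.28 in the G-MDSC group (adjusted p = 0.155), and of the alternatives run this passed only without G-MDSC library 3 (-0.44, adjusted p = 0.0284).

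Because FPKM is scaled by length, the 3 co-receptors can be set side by side. Gas1 made up 92.1% ± 0.294 of the summed Gas1, Boc and Cdon level in untreated MSCs and 46.6% ± 4.0 with TGF-β1. It made up 57.5% ± 5.01 after M-MDSC supernatant and 61.6% ± 4.42 after G-MDSC supernatant. These shares rest on Gas1, which was chosen for its fall, and they describe the make-up of the transcripts only.

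Ligands were at or near 0 throughout. Shh had 0 counts in all 12 libraries, at a depth of at least 73977669 counts. Ihh had at most 31 counts and Dhh at most 12 counts in any library. In a list of 9 genes for ligands and their release, 1 passed the filter on low values, Disp1, which encodes the transporter that releases lipid-bound ligand from producing cells. Disp1 was 5.19 to 5.69 FPKM untreated, 5.19 to 5.81 FPKM with TGF-β1, 4.16 to 4.52 FPKM with M-MDSC supernatant and 4.11 to 4.59 FPKM with G-MDSC supernatant. It fell by 0.35 on the log2 scale with either supernatant against TGF-β1 (edgeR adjusted p = 0.0128 for M-MDSC and 0.0103 for G-MDSC). The first call was lost without TGF-β1 library 2 (adjusted p = 0.057) or M-MDSC library 3 (0.0592), and the second without G-MDSC library 1 (0.0512). Both were lost when only the groups compared were fitted (0.0652 and 0.0631) and under the fold rule. The adjusted p ranged over 0.000305 to 0.0652 and 0.000193 to 0.0631 across all alternatives.

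Ptch1, the receptor, did not differ detectably between conditions, whereas Hhip, the decoy that binds ligand at the surface, fell with TGF-β1. Ptch1 (ENSMUSG00000021466, chromosome 13) was 2.0, 2.42 and 2.42 FPKM untreated and 2.54, 2.24 and 1.5 FPKM with TGF-β1. It was 2.37, 1.73 and 2.1 FPKM with M-MDSC supernatant and 2.14, 2.15 and 2.72 FPKM with G-MDSC supernatant. The groups overlapped, and TGF-β1 gave -0.07 on the log2 scale (95% interval -0.49 to 0.36, adjusted p = 0.832).

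Hhip (ENSMUSG00000064325, chromosome 8, minus strand) was 6.42, 5.71 and 5.81 FPKM untreated and 2.94, 2.59 and 2.47 FPKM with TGF-β1. The groups did not overlap, and Hhip fell by 1.11 on the log2 scale (SE 0.136, 95% interval -1.41 to -0.81, edgeR adjusted p = 9.2e-05). It was 1.8, 2.13 and 2.27 FPKM with M-MDSC supernatant and 1.64, 2.08 and 2.41 FPKM with G-MDSC supernatant, so all 6 libraries lay below the lowest TGF-β1 library. The differences from TGF-β1 were -0.39 (95% interval -0.69 to -0.09, adjusted p = 0.166) and -0.41 (95% interval -0.71 to -0.11, adjusted p = 0.129), and they did not pass the threshold. The G-MDSC difference passed without G-MDSC library 3, at an adjusted p = 0.0452 within a range of 0.0452 to 0.326. Against untreated MSCs Hhip fell by 1.5 when M-MDSC supernatant was added and by 1.52 for the G-MDSC one (adjusted p = 1.03e-05 and 9.64e-06), where Gas1 was at -3.17 and -3.02.

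The ratio of Hhip to Ptch1 in the same library was 2.66 ± 0.477 untreated, 1.32 ± 0.279 with TGF-β1, 1.03 ± 0.242 after M-MDSC supernatant and 0.872 ± 0.101 after G-MDSC supernatant. The lowest untreated ratio of 2.36 lay above the highest TGF-β1 ratio of 1.64. Hhip, unlike Gas1, was not nearer to its untreated level in the libraries with supernatant than with TGF-β1 alone.

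Smo, which passes the signal across the membrane, was the member with the highest level in every treated library and fell slightly. Smo (ENSMUSG00000001761, chromosome 6) was 52.4, 54.9 and 50.5 FPKM untreated, and 44.2, 45.4 and 43.4 FPKM with TGF-β1. It was 44.8, 43.7 and 43.9 FPKM with M-MDSC supernatant and 44.8, 44.1 and 44.3 FPKM with G-MDSC supernatant. The 9 treated libraries spanned 43.4 to 45.4 FPKM and did not reach the untreated range. Smo fell by 0.19 on the log2 scale with TGF-β1, to 0.877 of the untreated level (edgeR adjusted p = 0.00231). Supernatant against TGF-β1 gave -0.03 (95% interval -0.11 to 0.05) for M-MDSC and -0.02 (95% interval -0.11 to 0.06) for G-MDSC. The ratio of Smo to Gas1 was 1.02 ± 0.102 untreated, 10.9 ± 2.5 with TGF-β1, 7.96 ± 0.991 after M-MDSC supernatant and 7.16 ± 0.926 after G-MDSC supernatant. A transcript on the same strand within Smo, Gm13717, reached 2.76 FPKM at most.

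Of the GLI factors, Gli2, the main activator, fell with TGF-β1, and no call was made for Gli3, the main repressor, or Gli1. Gli2 (ENSMUSG00000048402, chromosome 1) was 4.2, 3.54 and 3.53 FPKM untreated and 2.65, 2.38 and 2.84 FPKM with TGF-β1. The groups did not overlap, and Gli2 fell by 0.46 on the log2 scale (95% interval -0.67 to -0.25, edgeR adjusted p = 0.00363). With supernatant Gli2 was 2.43 to 2.85 FPKM (M-MDSC) and 2.43 to 2.73 FPKM (G-MDSC), within 0.04 of TGF-β1 on the log2 scale, with intervals of -0.24 to 0.18 and -0.26 to 0.17. Gli3 (ENSMUSG00000021318, chromosome 13) was 3.86, 3.06 and 3.31 FPKM untreated and 4.31, 3.54 and 3.61 FPKM with TGF-β1. Those groups overlapped, with a difference of 0.22 (95% interval -0.04 to 0.49, adjusted p = 0.191). The ratio of Gli3 to Gli2 nevertheless separated the groups, at 0.865 to 0.938 in untreated MSCs and 1.27 to 1.63 with TGF-β1. It was 1.38 to 1.51 with M-MDSC supernatant and 1.43 to 1.7 with G-MDSC supernatant.

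Gli1 (ENSMUSG00000025407, chromosome 10), whose transcription follows active hedgehog signalling, was barely expressed. It was 0.199, 0.326 and 0.178 FPKM untreated, 0.26, 0.35 and 0.296 FPKM with TGF-β1, 0.121, 0.207 and 0.218 FPKM with M-MDSC supernatant and 0.263, 0.28 and 0.236 FPKM with G-MDSC supernatant. These levels rested on 51 to 162 counts per library and were under the filter of 1 FPKM in at least 3 libraries. Without that filter, over 28622 genes, TGF-β1 against untreated gave 0.43 (95% interval -0.21 to 1.06, adjusted p = 0.434) and M-MDSC supernatant against TGF-β1 gave -0.74 (95% interval -1.38 to -0.11, adjusted p = 0.352). All 3 M-MDSC libraries lay below all 3 with TGF-β1 alone, and neither difference passed the adjusted threshold.

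**Figure D2:**
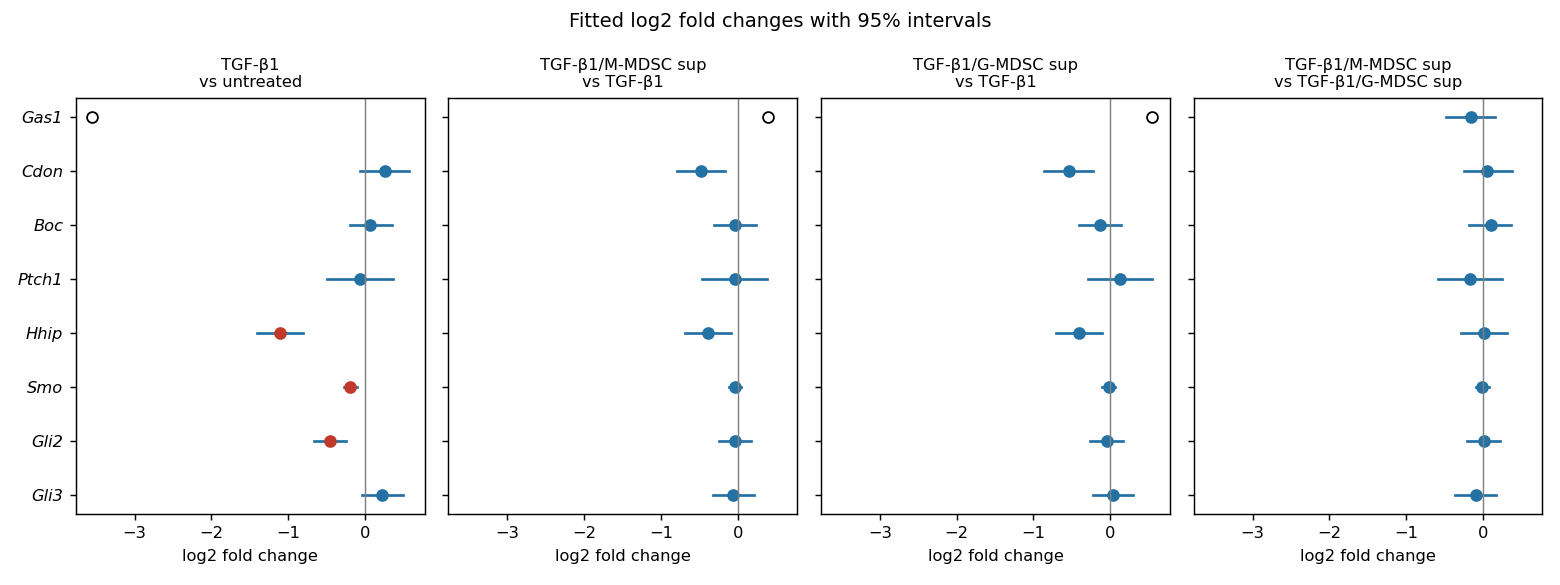
Fitted log2 fold changes of the 8 members that passed the filter, in 4 comparisons. Lines are 95% intervals, red points passed an adjusted p of 0.05 in edgeR, and open circles are Gas1 values given without a test. Hhip, Smo and Gli2 passed with TGF-β1, and none of the 7 others passed when supernatant was added.

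Counted over the 7 tested members other than Gas1, TGF-β1 lowered 3 (Hhip, Gli2 and Smo) and raised 0 in edgeR, and these 3 were also the only members with an unadjusted p under 0.05. Of all 12016 genes tested, 17.9% fell and 16.1% rose, against 3 and 0 of these 7 members, and the median member difference was -0.07 on the log2 scale against 0.0 for all genes. Under the rule of the study (at least 2-fold with an unadjusted p under 0.05) 1 of the 7 passed, Hhip, against 6.74% of all genes. With M-MDSC supernatant against TGF-β1, 0 of 7 were called in edgeR, where 2.83% of all genes rose and 1.95% fell. An unadjusted p under 0.05 was found for 2 and 1 (Cdon) was called by DESeq2. The shares of all genes under these criteria were not counted, so these counts have no background. By the fold rule 0 passed, against 2.18% of genes. With G-MDSC supernatant against TGF-β1 it was again 0 of 7, with 3.10% of genes higher and 2.46% lower. Here 2 had an unadjusted p under 0.05 and 1 (Cdon) was called by DESeq2, again with no share of all genes counted. By the fold rule 0 passed, against 2.17% of genes. Both of these comparisons use the same TGF-β1 libraries.

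Between M-MDSC and G-MDSC supernatant, 0 of 8 members including Gas1 were called by edgeR, DESeq2 or the fold rule, and 0 had an unadjusted p under 0.05. The background in that comparison was 0.0999% of genes higher, 0.0250% lower and 0.549% by the fold rule. Against untreated MSCs, Hhip, Gli2 and Smo were lower in both supernatant groups and 0 of 7 were higher. Of all genes tested, 16.4% rose and 18.9% fell when M-MDSC supernatant was added, and for the G-MDSC one these shares were 16.4% and 18.4%. By the fold rule 1 of 7, Hhip, passed in each, against 6.98% and 6.80% of genes. These comparisons share the untreated libraries with that of TGF-β1 alone.

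Beyond the 9 members, 54 further pathway genes were listed by role and 36 passed the filter. With TGF-β1, 9 rose, 6 fell and 21 were not called, where 16.1% of all genes rose and 17.9% fell, and the median was 0.08 on the log2 scale against 0.0 for all genes. The 6 include Foxd1, which passed the filter only through the untreated libraries, where it was high. With M-MDSC supernatant against TGF-β1, 0 of 36 rose and 1 (Disp1) fell, against 2.83% and 1.95% of all genes. For G-MDSC supernatant 0 rose and 2 (Disp1 and Ccnd2) fell, against 3.10% and 2.46%, so that both counts were near the background. Ccnd2, a D-type cyclin, was 17.1 to 19.5 FPKM with TGF-β1 and 15.3 to 16.5 FPKM with G-MDSC supernatant, and it fell by 0.23 (adjusted p = 0.0367). That call was lost when any untreated library, TGF-β1 library 1 or 2, G-MDSC library 1 or 2, or M-MDSC library 3 was left out (adjusted p = 0.00902 to 0.139 over all alternatives). Between the supernatants 0 were called by edgeR, with 0 at an unadjusted p under 0.05 in the lists of release, surface, regulator and target genes.

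At the cell surface, Gpc1, a glypican that carries heparan sulfate, rose with TGF-β1 from 20.8 to 22.2 FPKM to 26.6 to 29.9 FPKM (0.48 on the log2 scale, adjusted p = 7.71e-05). Gpc6, a glypican that promotes hedgehog signalling in growing bone, was 3.15 to 3.72 FPKM untreated and 1.92 to 3.11 FPKM with TGF-β1 (-0.43, adjusted p = 0.0669). It fell by 0.82 against untreated MSCs with G-MDSC supernatant (adjusted p = 0.00255) and by 0.54 with M-MDSC supernatant (adjusted p = 0.0248). The latter call was lost without untreated library 1 or without any 1 of the M-MDSC libraries, within a range of 0.0026 to 0.0789 over all alternatives.

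Among 24 tested cytoplasmic and ciliary regulators, 6 rose and 2 fell with TGF-β1, against 16.1% and 17.9% of all genes. The 2 that fell were Prkaca, the catalytic subunit of protein kinase A that marks GLI proteins for processing into repressors, and Evc, which couples SMO to GLI at the base of the cilium. Prkaca was 57.7, 60.2 and 62.0 FPKM untreated and 41.4, 40.4 and 40.8 FPKM with TGF-β1, and it fell by 0.5 (adjusted p = 3.42e-06). Evc was 6.26, 6.94 and 6.09 FPKM untreated and 4.18, 4.23 and 4.33 FPKM with TGF-β1, and it fell by 0.54 (adjusted p = 0.000266). Neither gene's groups overlapped, and both stayed low with supernatant, at 38.5 to 41.2 FPKM for Prkaca and 3.34 to 4.21 FPKM for Evc. Rab23, a small GTPase that restrains the pathway, rose by 0.36 (adjusted p = 0.0207), from 1.89 to 2.09 FPKM to 2.26 to 2.87 FPKM. That call was lost without untreated library 1 or TGF-β1 library 1 (adjusted p = 0.0803 and 0.0753), under limma with a pseudocount of 1 or 0.1 (0.0669 and 0.0631) and when only the groups compared were fitted (0.0543), with 0.00612 to 0.0803 over all alternatives. Grk2, a kinase of SMO, rose by 0.3 with TGF-β1 alone (adjusted p = 0.00249), and against untreated MSCs it was higher by 0.35 when M-MDSC supernatant was added and by 0.24 for the G-MDSC one (adjusted p = 0.000848 and 0.00957). Its differences from TGF-β1 alone were 0.05 for M-MDSC and -0.06 for G-MDSC (adjusted p = 0.735 and 0.693). Kif7, a ciliary kinesin, differed from untreated MSCs by -0.33 in both supernatant groups (adjusted p = 0.0104 for M-MDSC and 0.0111 for G-MDSC), and the G-MDSC call was lost when only the groups compared were fitted (0.0508). TGF-β1 alone gave -0.15 for Kif7 (adjusted p = 0.205), and supernatant against TGF-β1 gave -0.18 for each kind (adjusted p = 0.311 and 0.315).

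Of 9 tested genes reported as hedgehog targets in other tissues, 2 rose and 4 fell with TGF-β1, against 16.1% and 17.9% of all genes. Osr1, a transcription factor of early mesenchyme, was 15.5, 17.1 and 18.3 FPKM untreated and 2.64, 2.33 and 2.6 FPKM with TGF-β1, and it fell by 2.69 (adjusted p = 1.27e-07). It stayed at 2.16 to 3.18 FPKM with M-MDSC supernatant and 2.77 to 3.03 FPKM with G-MDSC supernatant. Snai1, a repressor of epithelial genes, rose from 16.2, 18.1 and 17.3 FPKM to 37.1, 37.4 and 34.6 FPKM (1.14, adjusted p = 2.51e-07). Cdk6, a cell cycle kinase, fell by 0.85 (2.97 to 3.35 FPKM against 1.58 to 1.78 FPKM, adjusted p = 2.74e-06). Foxd1, a factor of stromal progenitors, was 1.27 to 1.36 FPKM untreated, 0.72 to 0.799 FPKM with TGF-β1, 0.785 to 0.857 FPKM after M-MDSC supernatant and 0.647 to 0.782 FPKM after G-MDSC supernatant. It passed the filter only through the untreated libraries and so had to differ from them, which is why no test of it is given, although it is 1 of the 4 counted as lower. Its log2 differences from untreated MSCs were -0.73, -0.65 and -0.86 in that order. Members of this list are also regulated by other signals, and here they moved in both directions.

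Gfra1, a relative of Gas1, rose where Gas1 fell. Of 8 listed relatives of GAS1 and partners of RET, 2 passed the filter, Gfra1 and Gdnf. Gfra1, the co-receptor that presents GDNF to RET, was 3.0, 2.9 and 3.02 FPKM untreated, 3.37, 3.95 and 3.51 FPKM with TGF-β1, 4.73, 4.98 and 4.81 FPKM with M-MDSC supernatant and 4.35, 4.67 and 4.77 FPKM with G-MDSC supernatant. The groups with TGF-β1 alone, without it and with supernatant did not overlap. Gfra1 rose by 0.34 with TGF-β1 (adjusted p = 0.00312) and by a further 0.4 with M-MDSC supernatant (adjusted p = 0.00651) and 0.32 with G-MDSC supernatant (adjusted p = 0.0201). Both supernatant calls were lost when only the groups compared were fitted (adjusted p = 0.0506 and 0.1). The G-MDSC call was also lost without TGF-β1 library 1 or 3 or without G-MDSC library 2 or 3. The adjusted p over all alternatives was 5.61e-06 to 0.0506 for M-MDSC and 0.000544 to 0.1 for G-MDSC. Gdnf, its ligand, was 2.39 to 2.79 FPKM untreated, 2.5 to 3.1 FPKM with TGF-β1 and 3.18 to 4.01 FPKM with supernatant. Against untreated MSCs it was higher by 0.48 for M-MDSC and 0.53 for G-MDSC (adjusted p = 0.0051 and 0.0029). Its differences from TGF-β1 alone, 0.32 and 0.37, did not pass (adjusted p = 0.153 and 0.0849), nor did that of TGF-β1 from untreated (0.16, adjusted p = 0.279).

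Ret, the receptor tyrosine kinase of this group, was under the filter and is named because its values stood out once seen. It was 0.0295, 0.00596 and 0.037 FPKM untreated and 1.12, 0.867 and 1.09 FPKM with TGF-β1, from 4 to 23 and 535 to 680 counts. It was 0.746, 0.645 and 0.59 FPKM with M-MDSC supernatant and 0.645, 0.798 and 0.434 FPKM with G-MDSC supernatant, each library lying below all 3 with TGF-β1 alone. In the fit without a filter its log2 difference between TGF-β1 and untreated MSCs was 5.42, and those between supernatant and TGF-β1 were -0.65 and -0.73. They are given without a test, since Ret was picked for these values.

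Pmp22, another growth arrest-specific gene, also fell with TGF-β1. These genes were named for their rise in fibroblasts that leave the cell cycle and do not form 1 protein family. Of the 7 others, all passed the filter, 4 fell with TGF-β1, 0 rose and 3 were not called, where 16.1% of all genes rose and 17.9% fell. This count is a description only, since Gas6 passed the filter through the group where it was high and the call of Gas7 was lost under many alternatives. Gas6, a ligand of the TAM receptors, was 2.07, 1.5 and 1.99 FPKM untreated and 0.574, 0.496 and 0.376 FPKM with TGF-β1, a log2 difference of -1.88. It reached 1 FPKM in all 3 untreated libraries but in only 1 other, so no test against that group is given. Pmp22, a membrane protein of myelin also called Gas3, was 23.2, 26.6 and 26.2 FPKM against 9.04, 9.43 and 9.52 FPKM, and it fell by 1.38 (adjusted p = 2.33e-07). Gas2, which links actin and microtubules and is named after its values were seen, was 4.43 to 5.09 FPKM against 2.08 to 2.32 FPKM, a log2 difference of -1.09.

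Gas7, which binds actin, was less even. It was 0.954, 3.06 and 3.85 FPKM untreated and 1.07, 1.03 and 0.35 FPKM with TGF-β1, so that untreated library 1 lay among the treated ones. It fell by 1.62 (adjusted p = 0.0414), and this call was lost without untreated library 2 (0.0991) or 3 (0.141), with any 1 TGF-β1 library left out (0.058 to 0.109), and with any G-MDSC library or M-MDSC library 1 left out (0.0521 to 0.0556). It was also lost with the replicate number as a block (0.0908), without the filter (0.0677), under limma with a pseudocount of 0.1 (0.052) and when only the groups compared were fitted (0.0952). Its adjusted p ranged over 0.00814 to 0.141 across all alternatives. With supernatant against TGF-β1, 0 of the 7 had an unadjusted p under 0.05 for M-MDSC and 2 for G-MDSC, with no share of all genes counted. By the adjusted p of edgeR, 0 of the 7 were called. Of all genes, 2.83% rose and 1.95% fell for M-MDSC and 3.10% and 2.46% for G-MDSC, so that 0 of 7 does not set these genes apart. Gas6 was 0.435, 0.607 and 0.818 FPKM with M-MDSC supernatant and 0.757, 1.09 and 0.566 FPKM with G-MDSC supernatant (0.34 and 0.7 against TGF-β1, adjusted p = 0.627 and 0.24).

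**Figure D3:**
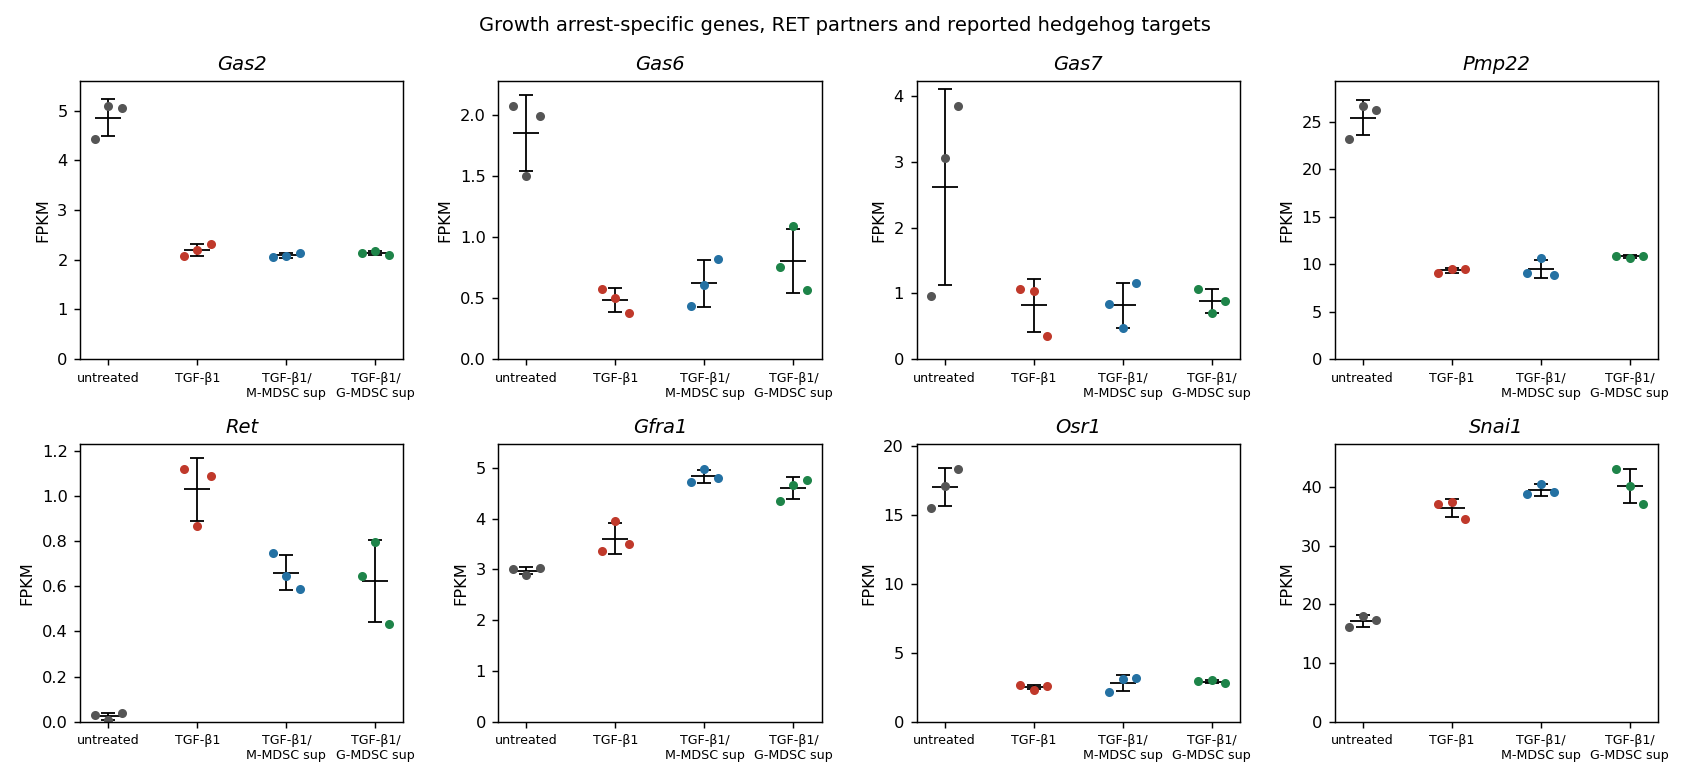
FPKM per library of 4 growth arrest-specific genes, of Ret and Gfra1, and of Osr1 and Snai1. Points are libraries, horizontal marks are means and bars are SD (n = 3 per group). Ret was at most 0.037 FPKM untreated and at least 0.867 FPKM with TGF-β1, and Gas7 in untreated library 1 lay at 0.954 FPKM, among the treated libraries.

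The genes whose levels ran most like that of Gas1 were sought over all 12 libraries by the Pearson correlation of log2(FPKM + 1), among 1929 other genes with a range of at least 1. They were Ptx3, a secreted pattern recognition molecule (r = 0.997), Angptl7, a secreted angiopoietin-like protein (r = 0.995), and Kcnj2, a potassium channel, Errfi1, an inhibitor of the EGF receptor, and Tmem176b, a membrane protein (r = 0.994 each). All of these points share the step between 3 untreated and 9 treated libraries. Over the 9 treated libraries alone r was 0.90 for Ptx3 and 0.79 to 0.84 for the other 4, a description of genes picked for their likeness over these same libraries. Ptx3 went from 27.4 to 28.9 FPKM in untreated MSCs to 2.7 to 3.45 FPKM with TGF-β1, and was 3.96 to 5.27 FPKM with M-MDSC supernatant and 4.53 to 4.68 FPKM with G-MDSC supernatant. Like Gas1 on the FPKM scale, it was higher in each library with supernatant than in all 3 with TGF-β1 alone. Kcnj2 did the same, at 0.672 to 0.924 FPKM with TGF-β1 and 1.04 to 1.21 FPKM with supernatant. The other 3 of the 5 overlapped. Errfi1 was 40.7 to 42.8 FPKM with TGF-β1 and 41.8 to 50.3 FPKM with supernatant. Angptl7 was 0.0572 to 0.239 FPKM with TGF-β1 and 0.113 to 0.756 FPKM with supernatant, and Tmem176b was 8.62 to 10.7 and 9.65 to 13.2 FPKM.

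**Figure D4:**
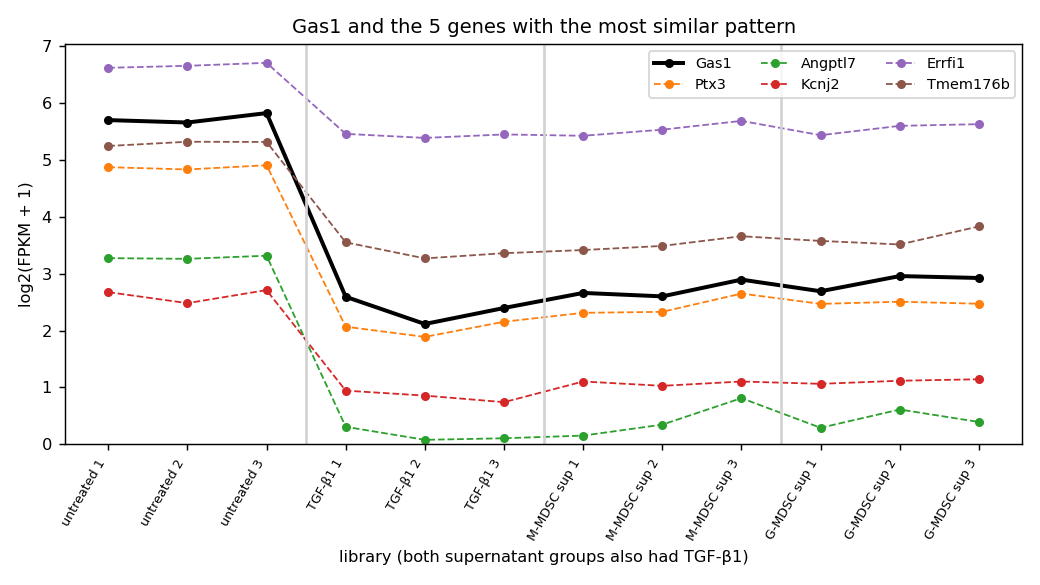
log2(FPKM + 1) of Gas1 and the 5 genes with the most similar pattern in each of the 12 libraries, grouped by condition. Lines join libraries only to guide the eye. All 6 genes drop between the untreated and the TGF-β1 libraries, and Gas1 (thick black line) goes from 49.3 to 55.4 FPKM to 3.33 to 5.03 FPKM.

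The kidney transcripts found in the libraries with supernatant, whose source is not given, lay beside the members as follows. Hhip was 2.13 and 1.8 FPKM in the M-MDSC libraries with kidney sums of 17.174 and 18.903 FPKM, and 2.27 FPKM in the one with 86.47 FPKM. In the G-MDSC libraries it was 1.64 FPKM at a sum of 51.103 FPKM, 2.41 FPKM at 61.479 FPKM and 2.08 FPKM at 65.838 FPKM. Hhip was thus 1.64 to 2.13 FPKM at the 3 lowest sums and 2.08 to 2.41 FPKM at the 3 highest, and these ranges overlapped. Whether these transcripts contributed to any member's level was not tested.

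**Figure D5:**
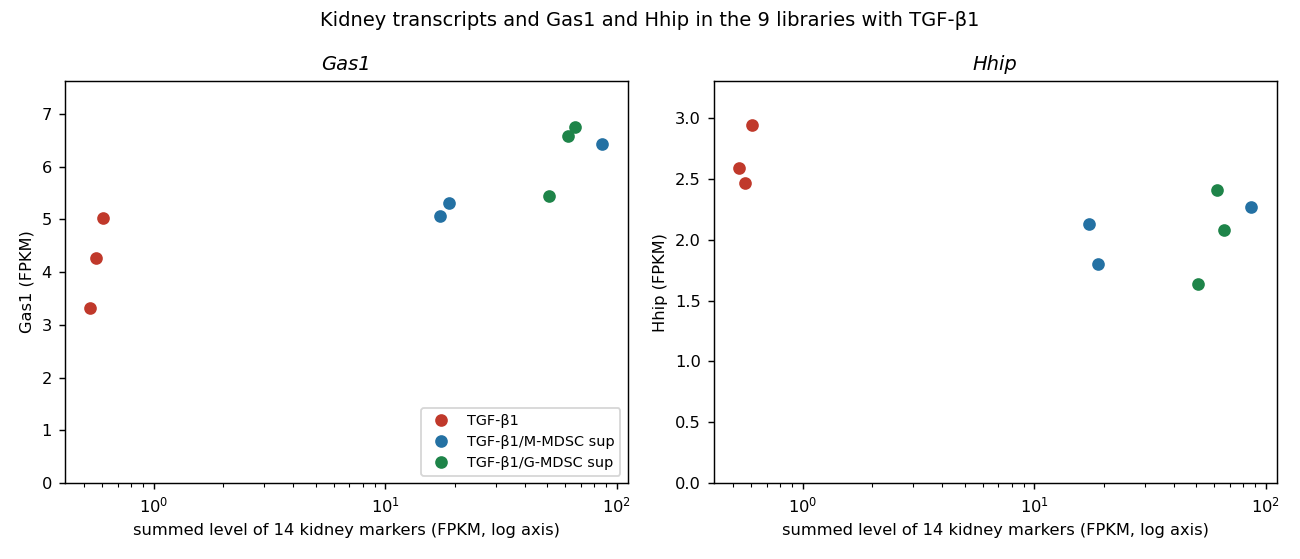
Gas1 (left) and Hhip (right) in FPKM against the summed FPKM of 14 kidney markers (log axis) in the 9 libraries with TGF-β1. Points are libraries, coloured by group. Gas1 was 5.06 and 5.32 FPKM at the lowest sums with supernatant and 6.43 to 6.76 FPKM at the 3 highest, where Hhip was 2.08 to 2.41 FPKM against 1.64 to 2.13 FPKM at the 3 lowest.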

How the data were processed

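RNA of 12 samples was enriched for poly(A), made into libraries with a dUTP strand-marking protocol and sequenced in pairs. Per the labels, the processing notes name cutadapt 1.9, HISAT2 2.0.4, StringTie 1.3.4d, edgeR and DESeq2, and reads were placed on GRCm38. The deposited table gave whole counts and FPKM per gene for each library, both made by the authors. The tool that made the counts, and whether it used strand, is not given in the sources used here. Of nonzero counts up to 12, 44.3% were 4, 8 or 12, so counts were also tested after division by 4.

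Genes with at least 1 FPKM in at least 3 of 12 libraries were tested (12016 of 55401). Counts of the 4 groups were fitted together with edgeR 4.0.16 (TMM factors, quasi-likelihood F test, two-sided) in R 4.3.3, with Benjamini-Hochberg adjustment over all 12016 genes and a threshold of 0.05. Scripts were tested on simulated counts. Alternatives used DESeq2 1.42.0 and limma 3.58.1. The labels number the 3 libraries of a group without saying that they are separate cultures. The p-values weigh each difference against the spread between these libraries, which may be technical. Intervals are 95% confidence intervals of the fitted log2 fold change, built from the same fit.

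The members and all gene lists were chosen with earlier results of these data known. Named from each list were the 3 genes with the largest absolute log2 fold change among those called in each comparison, and as genes like Gas1 the 5 with the highest correlation. The motifs other than the GLI letters were added after the levels had been seen. Positions are those of the table, and 7 of 9 members have the same bounds in GENCODE M21.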

Additional observations from a re-analysis of the deposited data

How the results depend on the processing

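The falls of Hhip, Gli2 and Smo kept their direction and their call under all alternatives but the fold rule, where Gli2 and Smo did not reach 2-fold. The fold rule left 1 of the 7 members in TGF-β1 against untreated and in both supernatants against untreated. It left 2 of the other hedgehog genes in each of these comparisons and 0 with either supernatant against TGF-β1. DESeq2 called 1 member (Cdon) with each supernatant against TGF-β1, and 2 other hedgehog genes with M-MDSC supernatant. The shares of all genes called by DESeq2 were not counted, so these counts have no background. Leaving out 1 library gave 0 to 1 called members and 0 to 1 called other hedgehog genes for M-MDSC supernatant against TGF-β1, and 0 to 2 and 0 to 2 for G-MDSC supernatant. Against untreated, the called members were 3 for TGF-β1, 3 for M-MDSC supernatant and 3 to 4 for G-MDSC supernatant. Cdon was added without G-MDSC library 3. Of the 36 other hedgehog genes tested, 12 to 15, 12 to 18 and 13 to 16 were called in that order. With all libraries, 9 rose and 6 fell with TGF-β1, against 16.1% and 17.9% of all genes. With M-MDSC supernatant 8 rose and 10 fell, against 16.4% and 18.9%. With G-MDSC supernatant 6 rose and 9 fell, against 16.4% and 18.4%. Foxd1, which passed the filter only through the untreated libraries, is among the 36. The other hedgehog genes called with G-MDSC supernatant against TGF-β1 were 1 without the filter, 1 under limma with either pseudocount (1 or 0.1) and 0 when only the groups compared were fitted, and that last choice also gave 0 for M-MDSC supernatant. That fit draws its spread from 6 libraries in place of 12.

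Replicate numbers did not pair the libraries: deviations from the group means correlated at -0.00384 on average over 18 pairs with the same number (-0.156 to 0.0778) and at 0.00197 over 36 other pairs (-0.198 to 0.159). With the replicate number as a block, 1 other hedgehog gene was called in place of 2 for G-MDSC supernatant against TGF-β1, and no count of called members changed. The block also ended the calls of Gas7 in TGF-β1 (adjusted p = 0.0908), M-MDSC supernatant (0.073) and G-MDSC supernatant (0.0932) against untreated, and that of Ccnd2 in G-MDSC supernatant against TGF-β1 (0.0707).

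The differences that changed sign had not been called. Under limma, with a pseudocount of 1 or 0.1, Smo was 0.0025 and 0.0026 for G-MDSC supernatant against TGF-β1, and Boc was -0.0021 and -0.0039 for M-MDSC supernatant against untreated. With 1 library left out, log2 differences near 0 crossed it. For TGF-β1 against untreated these ranges were -0.23 to 0.11 for Ptch1. For M-MDSC supernatant against TGF-β1 these ranges were -0.22 to 0.12 for Ptch1, -0.1 to 0.046 for Gli2, -0.11 to 0.038 for Gli3 and -0.12 to 0.032 for Boc. For G-MDSC supernatant against TGF-β1 these ranges were -0.043 to 0.29 for Ptch1, -0.11 to 0.033 for Gli2 and -0.08 to 0.13 for Gli3. For M-MDSC against G-MDSC supernatant these ranges were -0.018 to 0.002 for Smo, -0.05 to 0.06 for Gli2, -0.16 to 0.027 for Gli3, -0.11 to 0.16 for Hhip, -0.033 to 0.21 for Boc and -0.032 to 0.22 for Cdon. For M-MDSC supernatant against untreated these ranges were -0.22 to 0.0049 for Ptch1 and -0.046 to 0.1 for Boc. For G-MDSC supernatant against untreated these ranges were -0.06 to 0.12 for Ptch1 and -0.17 to 0.07 for Boc. The cause was not tested. Gas1 kept its sign in every alternative. For the list genes named, alternatives were chosen after seeing the data and run only for the comparisons in which the naming rule picked a gene among the called ones, and there 0 signs changed. The depth limits Gli1 most, at 51 to 162 counts.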
